A study of Drosophila melanogaster with 2 samples.

Results

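The RNA polymerase and general factor genes are the protein-coding genes of the Ensembl BDGP6 annotation whose symbols begin with Polr1, Polr2 or Polr3 followed by a capital letter, with RpI, with Rpb and a digit, or with TfII. This rule found 39 of the 13945 protein-coding genes on the 6 chromosome arms analysed. No measured value entered the rule, but the members were chosen with earlier results of these data known. Classed by symbol, they were 7 genes of RNA polymerase I, 8 of RNA polymerase II, 10 of RNA polymerase III, 5 of subunits shared by all 3 enzymes, and 9 TfII genes. The polymerase II class includes Polr2M, which is named after a protein that associates with the enzyme. The data came from a single group of 2 biological replicates of whole Drosophila melanogaster embryos aged 0 to 24 hours. The flies carried a transgene for DREF (symbol Dref) fused to eGFP, and the fusion was precipitated with an antibody against GFP before sequencing (ChIP-seq). There is no second condition, the control experiment that the labels point to was not analysed here, and sex is not recorded for the embryos. The labels do not say whether an untagged Dref gene is also present. The embryos were whole, so the cell types behind a peak cannot be told apart. The files hold peak positions with the authors' signal, and read depth is unknown.

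RNA polymerase I transcribes the large ribosomal RNA, RNA polymerase II the messenger RNAs, and RNA polymerase III the transfer RNAs and other short RNAs. Polymerase II begins transcription with general factors, among them TFIIA, TFIIB, TFIIE and TFIIF, which place it on the promoter and open the DNA. The enzymes share a core design and several subunits. DREF binds the DNA replication-related element (DRE), TATCGATA, through its zinc finger, at promoters of proliferation and housekeeping genes.

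A gene was counted as bound when the summit of a peak lay within 250 bp of any of its annotated starts, in the conservative list made from both replicates. By this measure 22 of the 39 members were bound (56.4%), against 30.6% of all protein-coding genes. The share was 4 of 7 for polymerase I (57.1%), 5 of 8 for polymerase II (62.5%), 5 of 10 for polymerase III, 3 of 5 for the shared subunits and 5 of 9 for the TfII genes (55.6%). Every class had more than its background share of bound genes, the classes lay close to each other, and the differences among them rest on 1 or 2 genes and were not tested. The background is all protein-coding genes, which were not matched for activity in the embryo.

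**Figure D1:**
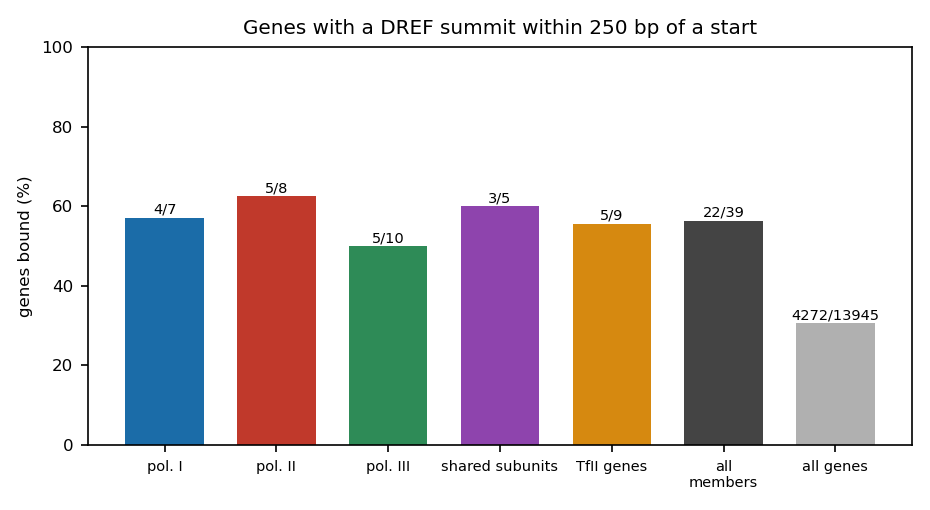
Share of genes bound (vertical axis, percent, from 0) in the 5 classes, in all 39 members and in all protein-coding genes, with counts above the bars. Polymerase II is highest at 62.5% and all members reach 56.4%, against 30.6% of all genes.

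Sequence around the summit was read for the members where a DRE or its absence bears on the peak. An exact DRE within 100 bp of the summit was found at 4 of the 22 bound members (18.2%), against 26.7% of all bound genes. These were Polr2D, Polr2L, Polr3A and Polr3B, and their DREs were centred 2 to 23 bp from the summit. With 1 mismatch allowed, 11 of the 22 had a match, against 57.6% of all bound genes. The search covered both strands, and the DRE is its own reverse complement. The members' DRE share was thus no higher than that of other bound genes, and a missing match says only that these letters are not in the window. The sequences below are on the strand of each gene, 5′ to 3′, within 60 bp of the summit and without annotated exons, in Release 6 (dm6) coordinates. Capitals mark matches to the DRE with at most 1 mismatch. The first 3 lines hold an exact DRE. They are Polr2D at chr3R:18255488-18255529 on the minus strand, Polr3A at chrX:15762879-15762955 on the plus strand and Polr2L at chr3R:24717435-24717510 on the plus strand.
Polr2D: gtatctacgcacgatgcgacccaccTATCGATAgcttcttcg
Polr3A: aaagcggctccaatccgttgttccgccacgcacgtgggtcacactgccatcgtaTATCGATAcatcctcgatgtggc
Polr2L: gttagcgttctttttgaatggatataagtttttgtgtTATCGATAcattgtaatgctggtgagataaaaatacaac
The next 3 lines show the strongest peak, at Polr1E (chr3R:18301729-18301809, minus strand), and those of Polr2C (chr2L:13833244-13833336, plus strand) and Polr2M (chr3R:19229349-19229462, plus strand), which hold near matches only.
Polr1E: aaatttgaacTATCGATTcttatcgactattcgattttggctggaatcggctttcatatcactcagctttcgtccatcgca
Polr2C: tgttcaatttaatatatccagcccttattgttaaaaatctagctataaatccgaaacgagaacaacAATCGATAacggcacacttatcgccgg
Polr2M: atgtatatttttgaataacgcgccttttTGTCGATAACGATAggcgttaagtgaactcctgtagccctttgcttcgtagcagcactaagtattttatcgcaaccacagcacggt
Counting positions from 1 at the 5′ end of the DRE on the gene's strand, Polr1E differed by A8T and Polr2C by T1A. Polr2M had A2G and T3A in overlapping sites, which share 2 bases and appear as a single run of capitals. The last line, Polr3D at chr3L:18109575-18109652 on the minus strand, is shown because its peak was as strong as those with a DRE and held no match even with 1 mismatch. The shorter core CGATA was found 5 times within 100 bp of the Polr3D summit, counting both strands.
Polr3D: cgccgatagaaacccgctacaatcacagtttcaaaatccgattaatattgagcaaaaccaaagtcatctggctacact

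Among the polymerase I genes, Polr1E, the homolog of the yeast subunit A49, had the strongest peak of all members. Its signal was 5475 in the conservative list, rank 35 of 5292 peaks, with 2355 in replicate 1 and 3144 in replicate 2. The summit lay in intergenic DNA 21 bp upstream of the start. Polr1A, the largest subunit, had a signal of 1226 (508 in replicate 1 and 716 in replicate 2), with the summit 10 bp upstream on 2R at 14601226 and 2 near-DREs. Polr1D, an alpha-like assembly subunit shared with polymerase III, had 1101 (406 and 683 in replicates 1 and 2). Its summit lay in an intron of Polr1D, 71 bp upstream of 1 of its 2 annotated starts. Polr1B, the second largest subunit, had a weak peak of 132 (51.5 and 81.3), 212 bp upstream of its start, and it was in the thresholded list of replicate 2 alone.

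The other 3 polymerase I genes were not bound. Polr1C, the alpha-like partner of Polr1D that is also shared with polymerase III, had only a ranked peak with a signal of 2.49 and a score of 44. Ranked peaks are those before the threshold, and every peak of the conservative list has a score of 830 or more. Polr1F, of the stalk, and Polr1H, a zinc ribbon subunit, had no ranked peak of the combined replicates within 250 bp. The nearest conservative summits to their starts were 6327 and 14020 bp away, and that of Polr1C was 8040 bp away.

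Polymerase II genes divided into strong and weak peaks. Polr2M, named after a human protein also called Gdown1 that associates with polymerase II, had a signal of 1796 (706 in replicate 1 and 1095 in replicate 2). Polr2D, a subunit of the stalk, had 1722 (635 and 1095). Polr2C, an alpha-like assembly subunit, had 1598 (595 and 1003). These 3 peaks lay 15 to 54 bp upstream of the starts and were listed in both replicates' own thresholded lists.

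The remaining 2 bound polymerase II genes were near the lower end. Polr2B, the second largest subunit, had 103 (60.02 in replicate 1 and 45.8 in replicate 2) and a q-value of 0.0619. Polr2J, the other alpha-like subunit, had 83.5 (48.2 and 35.3) and a q-value of 0.299, and was in neither replicate's thresholded list. Its summit lay 242 bp upstream of Polr2J but only 7 bp inside the neighbouring gene CG15141, in its 5′ UTR. The peak of Polr2J therefore rests on the width of the 250 bp window. Polr2B was in the list of replicate 1 and not in that of replicate 2. Without peaks of a q-value above 0.05, polymerase II had 3 of 8 genes bound and all members had 20 of 39, against 28.0% of all genes. In the list of replicate 2 alone polymerase II also had 3 of 8.

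Polr2A, the largest subunit with the repeated carboxy-terminal tail, was not bound. Its best ranked peak had a signal of 50.8 and a score of 541, and the nearest conservative summit was 10418 bp from its start. Polr2G, the other subunit of the stalk, had a ranked peak of 42.4 with a score of 243, and the nearest conservative summit lay 950 bp from its start, the smallest distance among the unbound members. Polr2I, a zinc ribbon subunit at the edge of the enzyme, had no ranked peak within 250 bp.

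Of the 5 shared subunits, 3 were bound. Polr2F, an assembly subunit, had a signal of 2892 (1100 in replicate 1 and 1805 in replicate 2), the second highest of all members, with the summit 59 bp upstream in the overlapping 3′ UTRs of CG31542 and CG34277 and no near-DRE. Polr2L had 691 (249 and 444), with a DRE. Polr2H had 542 (207 and 326), with the summit 245 bp upstream of its start but 14 bp upstream of a start of CG11247, whose annotated 5′ UTR covers it. Polr2E was not bound in the conservative list but was in the other thresholded list of both replicates and in that of replicate 2, with a ranked signal of 98.2 and a score of 616. Polr2K had no ranked peak of the combined replicates at its start.

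Polymerase III genes were evenly divided. Polr3A, the largest subunit, had a signal of 1807 (687 in replicate 1 and 1127 in replicate 2). Polr3D had 1711 (694 and 1030), and Polr3B, the second largest subunit, 1628 (674 and 957). Their summits lay 17 to 34 bp upstream, that of Polr3B on 2R at 12039007, and all 3 peaks were in the thresholded list of each replicate. Polr3E, which pairs with Polr3D in the enzyme, had a weaker peak of 211 (92.7 and 119). Polr3C had 398 (146 and 250), with the summit 175 bp upstream of its start, in an intron of CG5961 and 36 bp upstream of a start of that gene.

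No conservative peak lay at the starts of Polr3F and Polr3G, partners of Polr3C in an initiation subcomplex, Polr3I, of the stalk, and Polr3K, a zinc ribbon subunit. Ranked peaks at Polr3F and Polr3G had signals of 35.1 and 40.1, and scores of 153 and 148. Polr3I and Polr3K had none of the combined replicates. Of the 17 unbound members, Polr3K, Polr2I, TfIIEbeta and TfIIFbeta were the 4 with no peak near a start in the ranked lists used, those of single replicates included.

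Of the TfII genes, TfIIFalpha had the strongest peak, 1431 (549 in replicate 1 and 883 in replicate 2). TFIIF is the factor that accompanies polymerase II to the promoter. The summit lay 182 bp upstream of its start, and 43 bp inside the divergent gene CG1024. A second summit of 133 lay 24 bp inside TfIIFalpha, in the same interval. Its partner TfIIFbeta had no ranked peak within 250 bp.

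TFIIE showed the same division, and the number of such pairs is too small to read further. TfIIEalpha, whose protein helps recruit and control TFIIH, had 989 (364 in replicate 1 and 629 in replicate 2). TfIIEbeta had no ranked peak. TfIIB, which bridges the TATA-binding protein and polymerase II, had 878 (352 and 533), with the summit 1 bp inside the gene. TfIIS, an elongation factor that helps a stalled polymerase to cut its transcript, had 326 (109 and 221). TfIIA-L, the large subunit of TFIIA, had a weak peak of 130 (36.5 and 82.9) that was in the thresholded list of replicate 2 alone. Its summit lay 5 bp downstream of 1 of its 2 annotated starts, which is not the start of the gene feature.

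TfIIA-S, the small subunit of TFIIA, had a ranked peak 58 bp upstream of its start, at chr3R:23891050-23891188, with a signal of 291, a score of 1000 and a q-value of 0.000168. Its signals were 142 in replicate 1 and 147 in replicate 2. This peak passed the score of the conservative list but was not in it, nor in the other thresholded lists, for a reason that the labels and file notes do not give. It was 1 of 153 such peaks on the arms. TfIIA-S-2, its paralog, had a ranked peak of 10.5 with a score of 44.

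**Figure D2:**
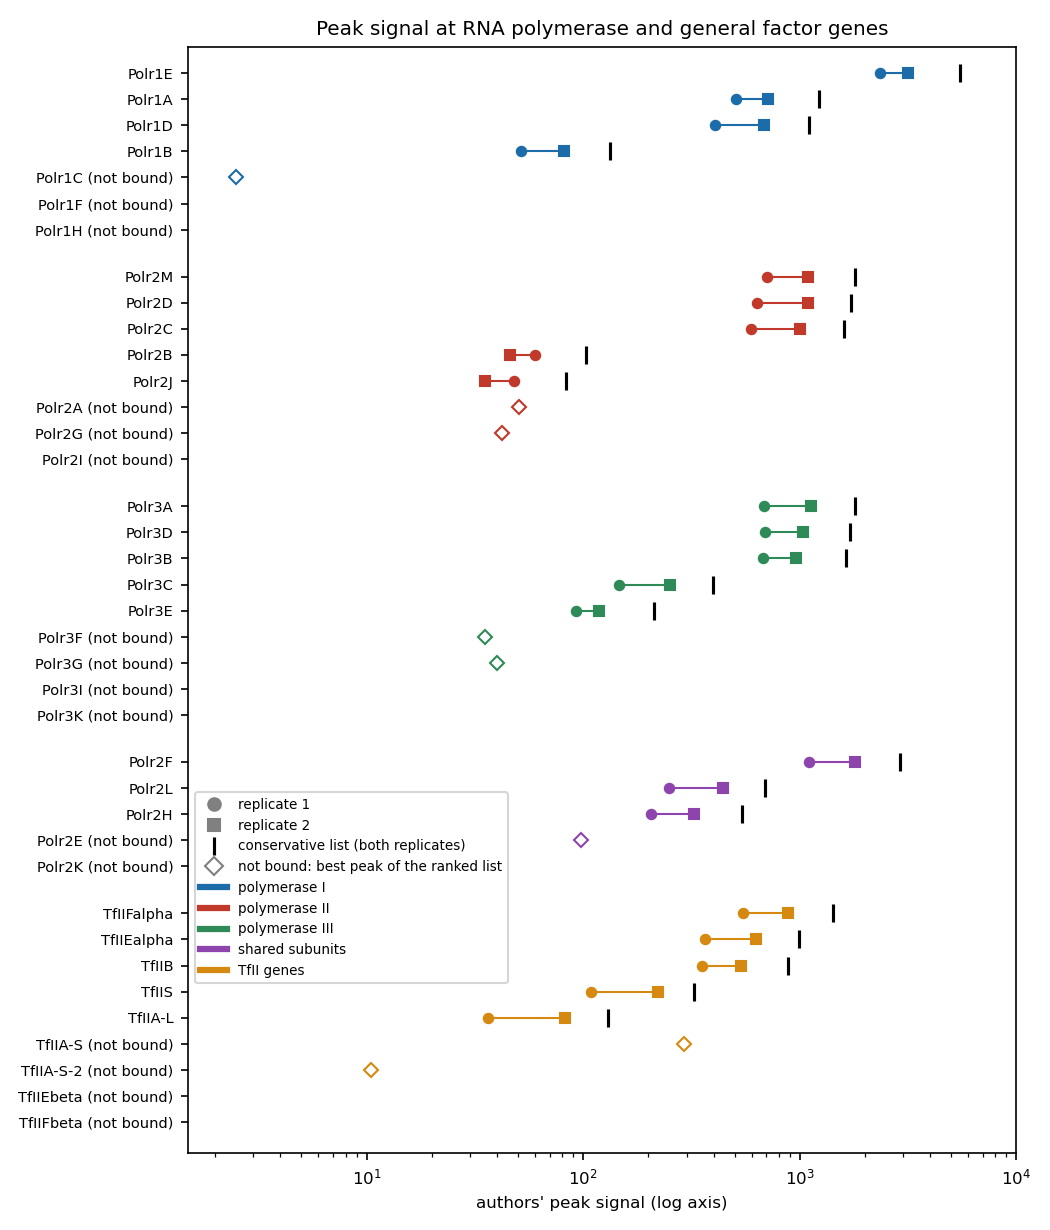
Authors' signal (log axis) of the peak at 38 of the 39 members, by class, in replicate 1 (circles), replicate 2 (squares) and the conservative list (bars); open diamonds give the best ranked peak of unbound members. Signals of bound members run from 83.5 at Polr2J to 5475 at Polr1E, and those of the unbound members drawn with a ranked peak from 2.49 to 291.

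Peak strength of the bound members was close to that of other bound genes. The median signal was 1045 for the 22 members and 908 for all bound genes. A signal above 1000 was found at 11 of the 22, against 47.6% of all bound genes. By class the median was 1163 for polymerase I, 1598 for polymerase II, 1628 for polymerase III, 691 for the shared subunits and 878 for the TfII genes. Signals within each class overlapped those of the others.

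The thresholded list of replicate 1 held a summit at 19 of the 39 members, against 26.9% of all genes, and that of replicate 2 at 21, against 28.7%. Of the 22 bound members 18 were in both lists (81.8%), against 83.3% of all bound genes. Signals were higher in replicate 2 at 20 of the 22, against 3903 of all 4272 bound genes. The median ratio of replicate 2 to replicate 1 was 1.59 for the members and 1.58 for all bound genes. The ratio ran from 0.732 at Polr2J to 2.27 at TfIIA-L. The exceptions with a higher signal in replicate 1 were Polr2B and Polr2J, which had the lowest conservative signals of the members. Read depth is unknown, so the ratio cannot be told apart from depth.

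**Figure D3:**
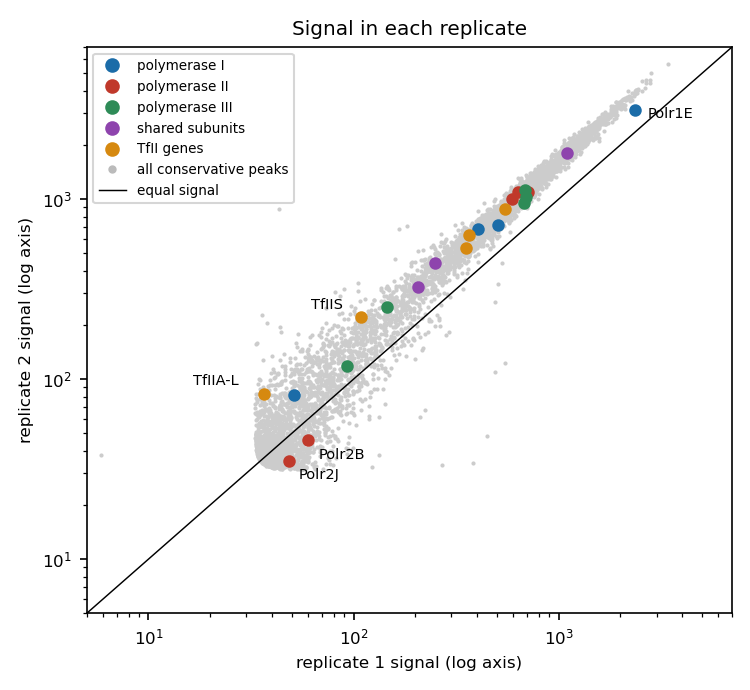
Signal of each conservative peak in replicate 1 (horizontal) and replicate 2 (vertical), both on log axes, with the 22 bound members in colour and the line of equal signal. Only Polr2B and Polr2J among the members lie below the line, and TfIIA-L lies farthest above it.

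Summits lay about as close to the starts as those of other bound genes, and mostly upstream of them. Of the 22 summits, 20 were upstream (90.9%), against 89.7% of all bound genes, and the median distance was 33.5 bp, against 42.0 bp. It was 50 bp or less at 13 of the 22 (59.1%), and the share was 59.1% for all bound genes. The summits of Polr1B, Polr2H, Polr2J, Polr3C and TfIIFalpha lay 175 to 245 bp away, and at 4 of these 5 the start of another gene was nearer. Polr1B was the exception. Polr2H and Polr2J were the members just inside the 250 bp limit, and Polr2G, with 950 bp, was the first outside it. With each summit given only to the gene of its nearest start, a choice made after the values were seen, 19 of the 39 members were bound, against 25.3% of all genes. Polr2H, Polr2J and Polr3C lost their call. TfIIFalpha kept it only through its weaker second summit, with a signal of 133 and a replicate 1 signal of 43.1. In replicate 2 this summit was matched to the same signal of 883 as the main summit.

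**Figure D4:**
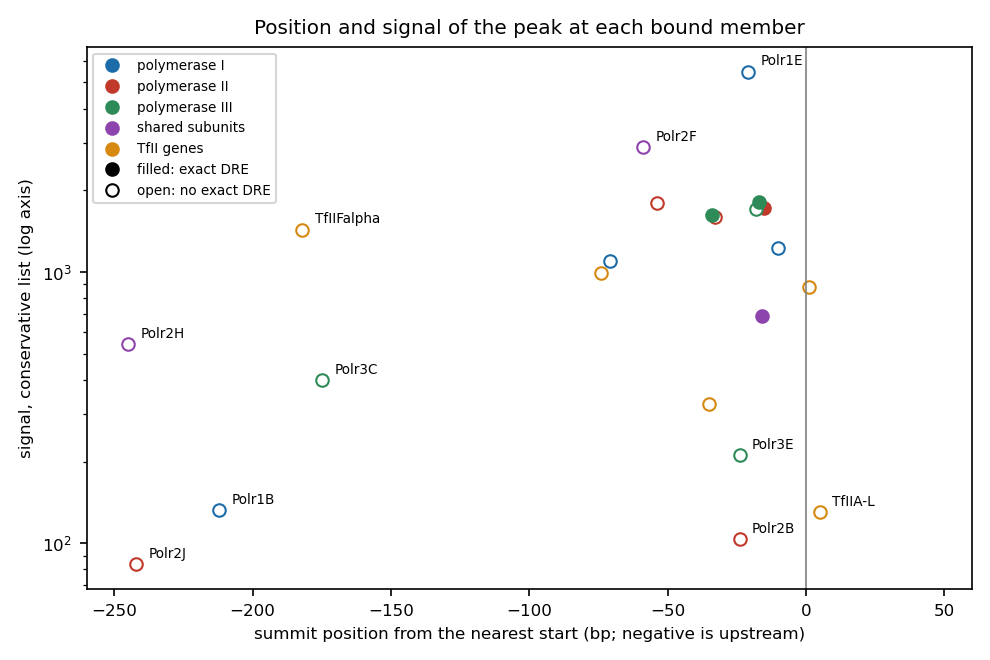
Position of the summit from the nearest start of each bound member (horizontal, bp, negative upstream) against the signal in the conservative list (log axis), with filled points for peaks holding an exact DRE. Most points lie within 75 bp of the start, and all 4 filled points lie within 34 bp.

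Members often had a gene beginning in the other direction close by. A start of another gene on the opposite strand lay within 500 bp upstream at 23 of the 39 (59.0%), against 27.4% of all genes. The summit also lay within 250 bp of a start of another protein-coding gene at 10 of the 22 bound members (45.5%), against 40.3% of all bound genes. Blos1 shared the peak of Polr1A, 140up that of Polr2B, CG5250 that of Polr2M and mus304, a DNA damage checkpoint gene, that of Polr3D. At Polr2D the 42 bases printed above separate it from the starts of Tgs1 and moi, a telomere capping gene, and Ada2a, a histone acetyltransferase adaptor, has a start 15 bp from the summit, as Polr2D has. PolG2 and GatC lay 199 bp from the summit of Polr2C. Of the members with a divergent start 14 of 23 were bound (60.9%), against 57.9% of all such genes. Without a divergent start 8 of 16 were bound, against 20.4% of all such genes. Members and all genes thus lay close together where a divergent start was present and apart where it was absent, and this difference was not tested.

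**Figure D5:**
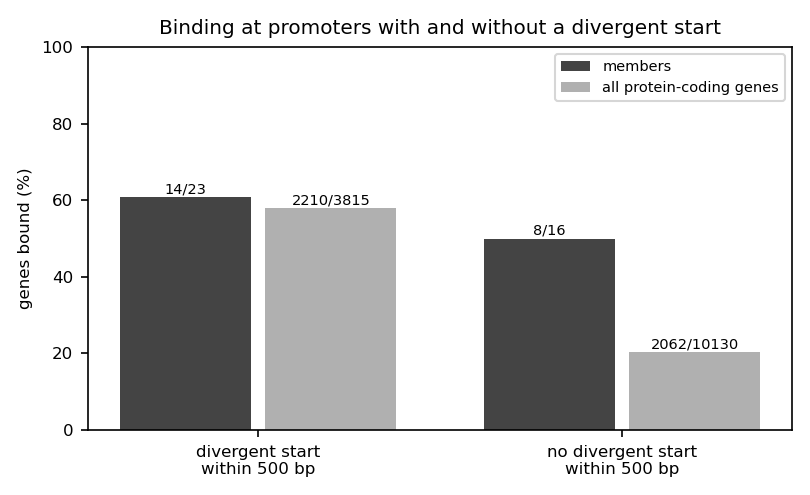
Share of genes bound (percent, from 0) among members and among all protein-coding genes, split by the presence of a divergent start within 500 bp. The bars for divergent promoters are 60.9% and 57.9%, and those for other promoters 8 of 16 and 20.4%.

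An exact DRE within 100 bp of a start, with or without a peak, was found at 4 of the 39 members (10.3%), against 8.49% of all genes, and all 4 were bound. Of all genes with such a DRE 88.6% were bound. The recognition sequence of the promoter factor M1BP, known as Motif 1, lay within 100 bp of the summit at 4 of the 22 bound members (18.2%), against 6.67% of all bound genes. These were Polr2D, Polr3A, Polr3E and Polr2H. Within 100 bp of a start, with or without a peak, Motif 1 was found at 5 of the 39 members (12.8%), against 4.34% of all genes. Of these 5 members 3 were bound, against 50.2% of all genes with Motif 1 there. The core E-box CAGCTG lay near 3 of the 22 summits and 21.6% of those of all bound genes, and the core CGATA near 16, or 72.7%, and 75.5%.

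Genes of the transcription machinery outside the naming rule were bound in 29 of 38 cases (76.3%), against 30.6% of all protein-coding genes, which is also the background for each group below. The count was 23 with summits within 100 bp, against 25.6% of all genes, and 22 with each summit given only to its nearest start, against 25.3%. The list was written from general knowledge. Of its spellings 4 matched no gene. For Taf1B and Spt4 the genes were counted under the spellings TAF1B and spt4. Tfb2, listed under TFIIH, and Taf1C matched no gene and were not counted. TFIIH, which opens the promoter DNA and phosphorylates the polymerase tail, had 8 of 9 matched genes bound, and elongation factors 17 of 20. Factors of polymerases I and III had 3 of 6, and the TATA-binding protein family 1 of 3. The highest signals were those of Rtf1 (4545), of the PAF complex, Nelf-A (4276), of the negative elongation factor, and Tfb1 (4247), of TFIIH. The first unbound genes by name were atms, Bdp1 and CycH. Among the Taf genes, which mostly encode TFIID subunits, 8 of 15 were bound (53.3%), and among the Mediator genes 17 of 25 (68.0%).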

How the data were processed

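ChIP-seq of DREF-eGFP was done on 2 biological replicates of embryos, with chromatin fragments of 200 to 800 bp per the labels. The authors deposited peak lists in dm6 coordinates. Each deposited peak has a score, read here as a scaled irreproducible discovery rate across replicates. It has the authors' signal of peak strength and, as deposited, the −log10 of a q-value. The aligner or peak caller was not given in the sources used here, and no source used here says that the deposited signal is scaled for depth. The conservative list held 5355 peaks, 5292 of them on the 6 arms (X, 4 and both arms of chromosomes 2 and 3). The thresholded list of replicate 1 held 3812 peaks and that of replicate 2 held 3990.

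Gene models were Ensembl release 115 (BDGP6.54), and the sequence was RefSeq Release 6, which is dm6. A gene took the peak of highest signal among the summits within 250 bp of its starts. Replicate signals came from the overlapping peak with the nearest summit in each replicate's ranked list. No test was made, because there is 1 group of 2 samples. Counts stand beside the same count over all protein-coding genes. Neighbouring genes can share a peak. The members are named, except 1 that is counted but not reported here, and of the other machinery genes the 3 of highest signal and the first 3 unbound by name. The members and lists were chosen with earlier results of these data known. The bound call and the motif search were tested on simulated data. Python 3.11.15, numpy 2.4.6 and pandas 2.3.3 were used.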

Additional observations from a re-analysis of the deposited data

Results flagged for a closer look

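TfIIA-S showed a signal of 291 in the ranked list of both replicates, in data outside the lists used for binding. The peak had a score of 1000 and was matched in both replicates, at 142 and 147, but no thresholded list held it. No other unbound member had such a peak.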

How the results depend on the processing

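Across 10 alternatives for binding, the share of members bound ran from 43.6% to 56.4% and stayed above that of all genes in each. Counts ran from 17 to 22 of 39, and 19 to 21 with a single replicate, where Polr2B and Polr2J were lost and Polr2E was gained without replicate 1, and Polr1B, Polr2J and TfIIA-L were lost without replicate 2. The value of 17 came from peaks above the median signal, against 21.4% of all genes. Summits within 100 bp, and peaks that cover a start, each gave 18, against 25.6% and 27.8% of all genes. The polymerase II count fell to 3 of 8 without replicate 1, with a q-value of 0.05 or less and above the median signal, where Polr2B and Polr2J lost their call each time. It was 3 to 4 over the single replicates. Other classes kept within 1.5 times of their counts. The median signal of bound members was 508 to 683 in the single replicates' own lists, which hold lower values than the combined list, and 1431 above the median signal, which drops weaker peaks by construction. Members with a DRE were 11 with 1 mismatch allowed. Divergent starts within 250 bp were found at 15 members, against 14.2% of all genes. Polr1D and TfIIA-L lost their call where only the start of the gene feature counted. No paired analysis was possible because there is a single group. Without read depth, weak peaks such as Polr2J cannot be given a counting error.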

Other observations

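Subunits that hold the same place in the enzymes were set side by side, a grouping made after the values were seen and given without a test. The groups hold 3 or 4 genes each, and 30.6% of all protein-coding genes were bound. The second largest subunits, Polr1B, Polr2B and Polr3B, were bound in all 3 enzymes in the conservative list. Of these, Polr1B was in the thresholded list of replicate 2 alone and Polr2B, with a q-value of 0.0619, in that of replicate 1 alone, so neither replicate's own list held all 3. The largest subunits were bound in 2 of 3 cases, with Polr2A the exception, and the alpha-like subunits in 3 of 4, with Polr1C the exception. Of the bound alpha-like subunits, Polr2J had a q-value of 0.299 and was in neither replicate's thresholded list. Its summit lay 242 bp from its own start and 7 bp from that of CG15141. The zinc ribbon subunits related to TFIIS, Polr1H, Polr2I and Polr3K, were bound in 0 of 3 cases. The subunits related to TFIIF, Polr1E, Polr3D and Polr3E, were bound in 3 of 3 cases. Of the trimer related to TFIIE in polymerase III, Polr3C was bound and Polr3F and Polr3G were not. The summit of Polr3C lay 175 bp from its own start and 36 bp from a start of CG5961. With summits within 100 bp, Polr3C lost its call.

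By arm, 6 of 8 members were bound on 2L, against 28.0% of all genes there, and 9 of 15 on 3R, against 29.5%. On 3L 4 of 7 were bound, against 26.9%, and on 2R 2 of 5, against 31.2%. On X 1 of 4 was bound, against 40.2%.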
